A study of Mus musculus with 8 samples.

Results

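The genes described here are 45 mouse genes of DNA replication and S phase, measured in primordial germ cells of the Control and Prmt5 KO genotypes. They were listed by name for their function, from the origin recognition complex to cyclin E, by a rule that uses no measured value, although earlier results of these data were known when the list was made. All 45 had counts and passed the filter on low counts, among 21444 genes with a count and 10990 genes tested. A mean level above the median of all genes tested was found for 43 of the 45.

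RNA sequencing was performed on primordial germ cells, the embryonic precursors of eggs and sperm, from mouse embryos at E11.5 on a mixed C57BL/6 and 129 background. The 4 Control libraries had the genotype Blimp1Cre;Prmt5flox/+ and the 4 Prmt5 KO libraries the genotype Blimp1Cre;Prmt5flox/flox, so both groups carried the Cre driver and at least 1 floxed allele. In both groups cells with a dPE Oct4 green fluorescent protein reporter were sorted. From these, 50 pg of total RNA went into each library by a single-cell protocol before SOLiD sequencing. Prmt5 encodes an enzyme that methylates arginines symmetrically, on histones and on proteins of the spliceosome among others. Blimp1 drives Cre in germ cells and also in other cells that express Blimp1, so recombination need not be limited to germ cells. Nothing in the labels ties a library to an embryo or a litter, so each p-value measures only how these libraries vary among themselves, which may be technical.

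Replication is prepared in G1, when the origin recognition complex, Cdc6 and Cdt1 load the MCM2-7 helicase onto DNA. In S phase the kinase Cdc7 with Dbf4, together with Cdc45, GINS and Mcm10, turns the loaded helicase into moving forks, where primase, polymerases, the PCNA clamp, its RFC loader, ligase and the RPA single-strand binding complex work. Many of these genes are transcribed in late G1 under E2F factors, and primordial germ cells at this age are still dividing. In a bulk sample, fewer cells in S phase and less RNA per cell cannot be told apart.

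Total gene counts ran from 1811433 to 6549498 per library, with Control 2 and Control 3 the shallowest. Prmt5 itself was at 89.4, 171, 172 and 118 CPM across the Control libraries and at 39.9, 40.5, 35.3 and 26.4 CPM across the Prmt5 KO libraries (CPM: a count scaled to library size, here and below in the order of the library numbers). Its log2 fold change was -1.95 (SE 0.272), with an adjusted p of 0.0388 in edgeR. Dropping Control 1 kept this call and dropping any other single library ended it (adjusted p 0.0198 to 0.233 in edgeR over the 8), at a log2 fold change of -2.11 to -1.82. Germ cell markers summed to 3953 to 4543 CPM over Control libraries and 4127 to 4807 CPM over Prmt5 KO libraries, with all 15 of 15 tested, Kit the most abundant. Somatic gonad markers (7 of 13 tested, none at 0 everywhere, Mfge8 the most abundant) summed to 139 to 217 CPM over Control libraries, to 766 CPM in Prmt5 KO 1 and to 175 to 215 CPM in the other 3 libraries of that group. Endothelial markers (3 of 6 tested, none at 0 everywhere, Pecam1 the most abundant, which germ cells also express) summed to 279 to 360 CPM over Control and 296 to 395 CPM over Prmt5 KO libraries. Blood markers (1 of 7 tested, Csf1r) summed to 20.6 to 42.7 CPM and 6.48 to 39.3 CPM, with the globin genes Hba-a1, Hba-a2, Hbb-y and Hbb-bh1 at 0 in every library. Prmt5 KO 1 and Prmt5 KO 4 stood apart: they held the highest value of 17.8% and 23.7% of all genes, so counts are given without them below. The part that this or the somatic signal had in the results on single members was not tested, except where values without those libraries are given.

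Replication genes were abundant in both groups and most differed little between them. Their summed level ran from 11802 to 13979 CPM over Control libraries and from 11772 to 13685 CPM over Prmt5 KO libraries, ranges that overlap almost fully. Per kilobase of transcript (RPKM), the median member had a mean level of 62.9 over the 8 libraries, against 9.88 for all genes tested. No member passed an adjusted p of 0.05 in edgeR's quasi-likelihood test, in which the call rate over all genes was 0.0273% (3 of 10990). The smallest adjusted p of a member was 0.202 in edgeR, for Gins4. DESeq2 called 1 member, Gins4 (1 of 45), where it called 107 of 10990 genes in all (0.974%), and limma voom called 0 members and 1 gene in all (0.0091%). At an unadjusted p under 0.05, 4 members were counted in edgeR, 8.89% of 45, against 8.15% of all genes. All 4 (Gins4, Rfc1, Rfc5 and Rpa1) had lower values in Prmt5 KO. The groups did not overlap for 4 members (Gins4, Rfc1, Rfc5 and Tyms), each lower in all 4 Prmt5 KO libraries. These were 8.89% of 45, against 4.9% of all genes in either direction. The shares of 8.15% and 4.9% count both directions, and in each more genes were higher than lower. The matching shares of lower genes alone were thus smaller, and the difference of the members from them was not tested.

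The median log2 fold change of the 45 members was -0.09, with 19 above 0 and 26 below, against a median of 0.03 and 52.7% above 0 for all genes tested. Single members ranged from -0.90 (Gins4) to 0.69 (Rpa3), and 39 of 45 lay within 0.5 of 0 on the log2 scale. The 95% interval lay within a log2 fold change of 1 on both sides for 36 of 45 members (80%), against 33.6% of all genes, since the members were measured more precisely (median SE 0.213 against 0.439). A change of 2-fold or more thus lay outside the interval of those 36. The intervals of the other 9 (Orc4, Gins2, Gins3, Gins4, Pola1, Prim2, Rpa3, Ccne1 and Ccne2) reached past 1 in size. Leaving out Control 1 moved the median of the list to 0.02, and leaving out each library in turn gave -0.13 to 0.02. Without Prmt5 KO 1 and Prmt5 KO 4, 0 members were called in edgeR, 3 of 45 had an unadjusted p under 0.05, against 916 of 12079 genes (7.58%) in the same fit, and the median was -0.07.

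**Figure D1:**
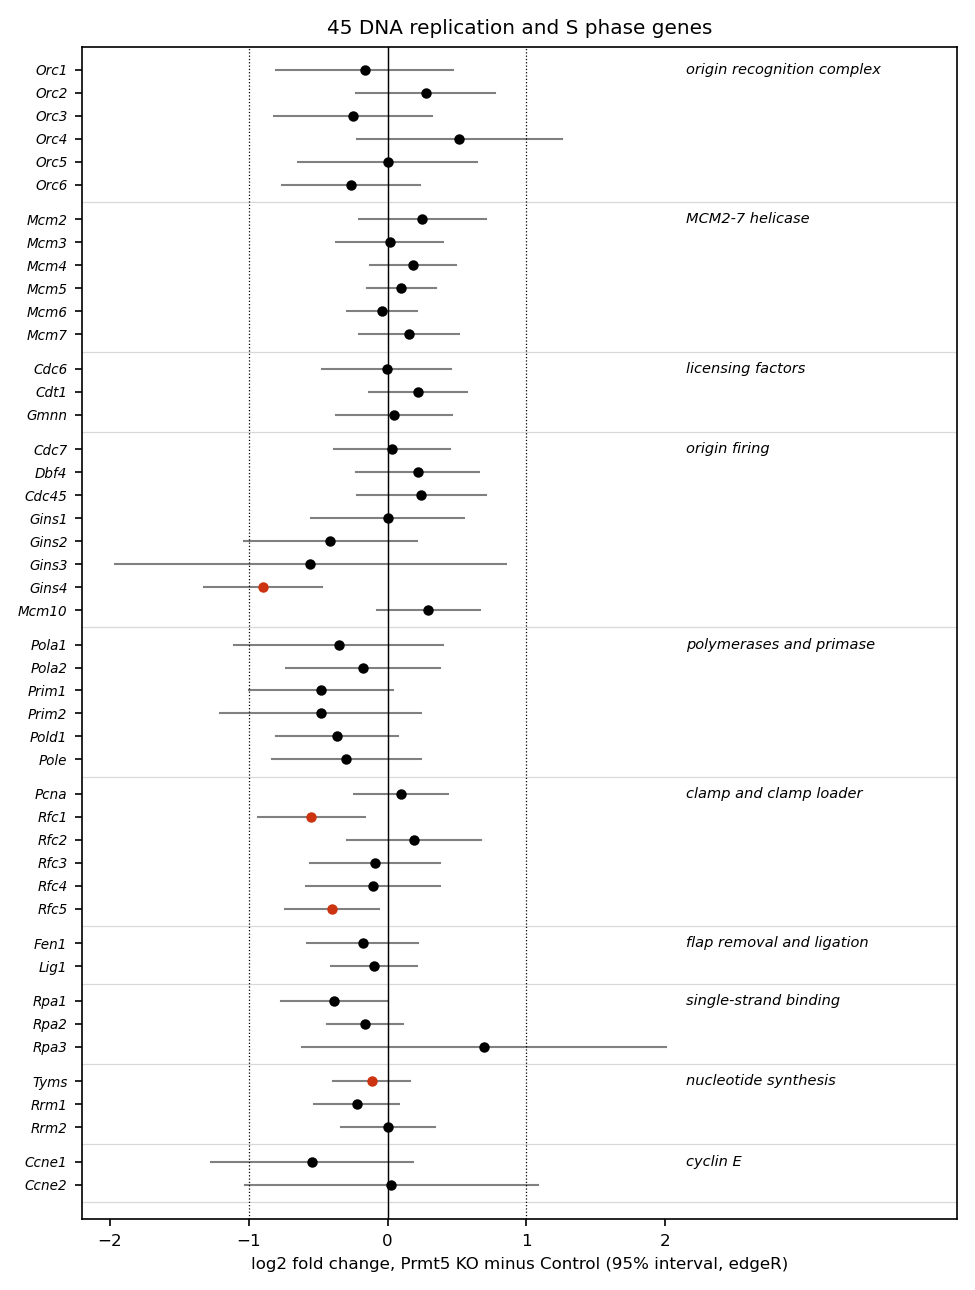
Log2 fold change of each of the 45 members (Prmt5 KO minus Control, horizontal axis) with its 95% interval from edgeR, grouped by role; red points mark the 4 members whose groups did not overlap, and dotted lines mark 1 and -1. Most intervals cross 0, and Gins4 lies farthest to the left at -0.90.

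The origin recognition complex marks the sites where replication can begin. None of its 6 subunits passed the test, with 2 above 0 and 4 below and a median log2 fold change of -0.08. Without Control 1 this became 4 above and 2 below with a median of 0.04, and without Prmt5 KO 2 also 4 above and 2 below with a median of 0.03. Orc6 had the highest level per length (mean RPKM 109) and Orc4 the lowest (12.9). Orc4, an ATPase-fold subunit, was at 32.1, 46.9, 46.1 and 47.7 CPM in the Control libraries and 60.6, 76.7, 81.7 and 27.4 CPM in the Prmt5 KO libraries. The first 3 Prmt5 KO libraries were above every Control library and Prmt5 KO 4 was below every one. Its log2 fold change was 0.52 (SE 0.343), with an adjusted p of 0.755 in edgeR. Orc6, the smallest subunit, was at 147, 155, 192 and 116 CPM in Control and 91.2, 114, 129 and 173 CPM in Prmt5 KO, with overlapping groups and a log2 fold change of -0.26 (SE 0.229), or -0.45 to -0.13 on leaving out single libraries. Parts of the Orc4 transcript lie opposite exons of Acvr2a, and it is not stated in the labels whether the authors counted by strand.

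The 6 subunits of the MCM2-7 helicase, which unwinds DNA ahead of the fork as a ring with 1 copy of each, had similar levels per length. Mean RPKM ran from 162 (Mcm2) to 435 (Mcm6), a ratio of 2.68, with Mcm7 at 396, Mcm3 at 230, Mcm4 at 177 and Mcm5 at 165. Mcm4, Mcm5 and Mcm2 lay within each other's spread between libraries. The ratio of the highest to the lowest member was 2.80 for nucleotide synthesis (2.28 with the coding Tyms transcript), 3.39 for flap removal and ligation, and 4.76 to 27.2 for the other 7 classes. The amplification used favours the 3′ end of a transcript, so levels per length understate long transcripts.

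No MCM subunit passed the test in edgeR. Mcm2 was at 517, 475, 474 and 531 CPM in the Control libraries and 389, 482, 589 and 915 CPM in the Prmt5 KO libraries. Control libraries were tight, while Prmt5 KO libraries lay on both sides of them and Prmt5 KO 4 was far above. Mcm3 was at 942, 567, 669 and 591 CPM in Control and 786, 628, 557 and 830 CPM in Prmt5 KO, with Control 1 the highest of all 8. Mcm4 was at 685, 604, 631 and 467 CPM in Control and 800, 656, 643 and 609 CPM in Prmt5 KO, and the groups overlapped. Mcm5 was at 520, 605, 492 and 535 CPM in Control and 590, 565, 585 and 565 CPM in Prmt5 KO. Its Prmt5 KO libraries were close to each other and all inside the Control range.

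Mcm6, the most abundant subunit, was at 1522, 1250, 1276 and 1086 CPM in Control and 1218, 1303, 1186 and 1286 CPM in Prmt5 KO, so the Control range enclosed all Prmt5 KO libraries. Mcm7 was at 976, 1179, 1097 and 1193 CPM in Control and 883, 1240, 1145 and 1678 CPM in Prmt5 KO, where Prmt5 KO 1 was the lowest and Prmt5 KO 4 the highest of all 8. The log2 fold changes were 0.25 (95% interval -0.21 to 0.71) for Mcm2, 0.02 (-0.37 to 0.40) for Mcm3, 0.18 (-0.13 to 0.49) for Mcm4, 0.10 (-0.15 to 0.35) for Mcm5, -0.04 (-0.29 to 0.21) for Mcm6 and 0.15 (-0.20 to 0.51) for Mcm7. Their adjusted p in edgeR was at least 0.791. Of the 6 values 5 were above 0, with a median of 0.13, which became 4 of 6 under upper-quartile scaling and 2 of 6, with a median of -0.03, without Prmt5 KO 4. Mcm7 shares short stretches with exons of Cops6 and Ap4m1 on the other strand.

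**Figure D2:**
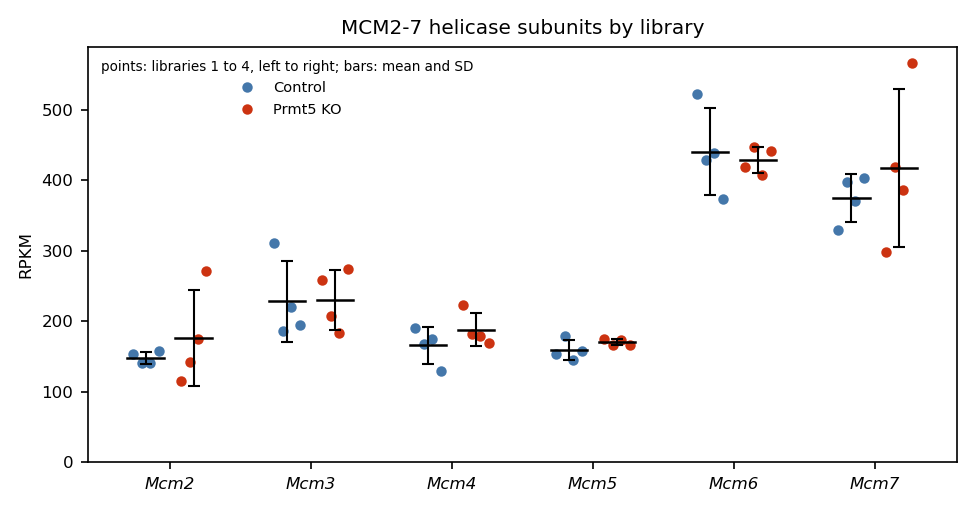
RPKM (vertical axis) of the 6 MCM2-7 subunits in each of the 4 Control and 4 Prmt5 KO libraries, drawn left to right in label order, with mean and SD as bars. Mcm6 and Mcm7 have the highest levels (mean RPKM 435 and 396), the groups overlap for every subunit, and Prmt5 KO 4 is the high point of Mcm2 and Mcm7.

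The promoters of the members share letters that the choice of genes did not use. RefSeq start sites (GRCm38.p6, 250 bases before to 50 after the start) were matched for 36 of the 45 members. An E2F-type run (TTCCCGC or TTCGCGC or TTGCCGC or TTGGCGC on either strand, overlapping matches counted separately) was present in 22 of 36 promoters (61.1%), against 18.7% of 8399 tested genes and 9.57% of 32851 promoters of this length. The CCAAT box letters (CCAAT on either strand) were in 21 of 36 (58.3%), against 39.7% of tested genes and 37.4% of all promoters. The CHR letters (TTTGAA on either strand) were in 6 of 36 (16.7%), against 11.7% of tested genes and 17.9% of all promoters, so this share was not above that of all promoters. An E2F-type match and a CCAAT match can overlap, since ATTGG, the reverse complement of CCAAT, shares letters with the start of TTGGCGC. The 180 bases before the start are shown for Mcm6, Mcm5 and Pola1, which had the most E2F-type matches upstream of the start, 4, 3 and 3. Capitals mark the E2F-type letters, and a run of 10 capitals holds overlapping matches on both strands.

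Mcm6 (chr1:128359706-128359885, minus strand): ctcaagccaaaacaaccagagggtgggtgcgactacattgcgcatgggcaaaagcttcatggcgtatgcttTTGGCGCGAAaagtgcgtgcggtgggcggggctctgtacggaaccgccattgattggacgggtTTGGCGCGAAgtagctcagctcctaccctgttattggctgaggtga
Mcm5 (chr8:75109329-75109508, plus strand): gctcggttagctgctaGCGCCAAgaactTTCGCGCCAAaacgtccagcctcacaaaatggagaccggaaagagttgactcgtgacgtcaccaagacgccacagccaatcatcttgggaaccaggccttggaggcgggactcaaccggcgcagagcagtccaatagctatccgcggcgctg
Pola1 (chrX:93632156-93632335, minus strand): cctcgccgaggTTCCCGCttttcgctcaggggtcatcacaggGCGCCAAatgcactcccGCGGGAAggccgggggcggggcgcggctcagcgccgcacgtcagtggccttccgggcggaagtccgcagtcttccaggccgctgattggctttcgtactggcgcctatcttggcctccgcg

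These matches are a description of letters and not of bound sites. The 22 members with E2F-type letters gave a median of -0.09 for the log2 fold change (14 below 0), and the 14 matched members without them a median of -0.06, with 8 below 0. Mcm6, Mcm5 and Pola1 themselves had values of -0.04, 0.10 and -0.35, none of which passed the test.

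Of the licensing factors, Cdc6 and Cdt1 load the helicase and geminin (Gmnn) blocks Cdt1 after S phase has begun. None of the 3 passed the test. Cdt1 was at 211, 215, 155 and 164 CPM in Control and 230, 212, 205 and 222 CPM in Prmt5 KO, a log2 fold change of 0.22 (SE 0.164). All 4 Prmt5 KO libraries were above the Control mean, but 2 Control libraries lay among them. Gmnn, the most abundant of the 3 per length (mean RPKM 219), was at 266, 185, 174 and 205 CPM in Control and 171, 207, 203 and 279 CPM in Prmt5 KO, with a log2 fold change of 0.05 (SE 0.194) and full overlap. Cdc6, the scarcest (mean RPKM 18.4), had a log2 fold change of -0.01.

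Among the 8 firing factors, Gins4 had the largest difference of all members. Gins4 encodes the Sld5 subunit of GINS, the 4-part complex that joins Cdc45 and MCM2-7 in the active helicase. It lies on GRCm38 chromosome 8 (23226616 to 23237659, minus strand, ENSMUSG00000031546). Gins4 was at 159, 194, 131 and 156 CPM in the Control libraries and 74.6, 80.0, 100 and 89.0 CPM in the Prmt5 KO libraries. Every Prmt5 KO library was below every Control library, and the nearest values of the groups were 100 and 131 CPM. The mean was 160 ± 25.8 CPM in Control and 86.0 ± 11.2 CPM in Prmt5 KO (SD, n = 4 each).

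The log2 fold change of Gins4 was -0.90 (SE 0.196, 95% interval -1.32 to -0.47), with an adjusted p of 0.202 in edgeR, which is not a call. In DESeq2 the log2 fold change was -0.89 and the adjusted p 0.00639. Over 19 alternatives its value stayed between -0.98 and -0.79, while the adjusted p in the alternatives run in edgeR was 0.199 to 0.760. No near copy of Gins4 (at least 90% identity over 400 bases) and no overlapping exon of another gene was found in the annotation.

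The other GINS subunits are known to act in 1 complex with Gins4. Log2 fold changes were 0.00 (95% interval -0.55 to 0.55) for Gins1, -0.41 (-1.03 to 0.21) for Gins2 and -0.56 (-1.96 to 0.85) for Gins3, and the groups overlapped for each. These 3, named after their values were seen, were scarcer than Gins4, at means of 59.7, 54.7 and 19.2 CPM in Control, and their intervals are wider than that of Gins4. Most of the Gins2 transcript lies opposite exons of Gse1, so its value may include reads of that gene. Dbf4, the activating subunit of the Cdc7 kinase and the most abundant firing factor per length (mean RPKM 103), was at 227, 213, 302 and 173 CPM in Control and 189, 316, 301 and 256 CPM in Prmt5 KO. The groups overlapped, with a log2 fold change of 0.22 (SE 0.205). The values of Cdc7, Cdc45 and Mcm10, which complete the class, were 0.03, 0.24 and 0.29, and none passed the test.

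**Figure D3:**
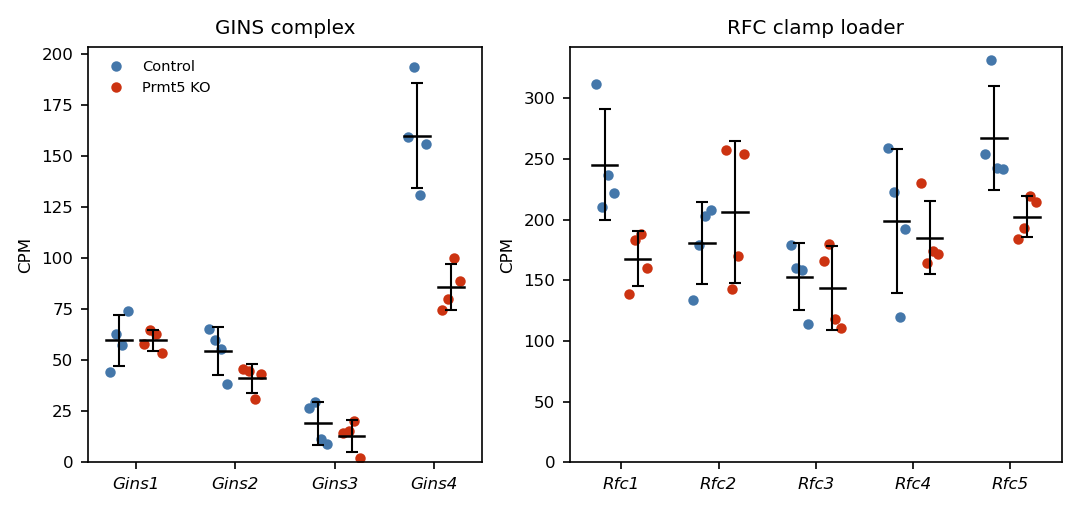
CPM (vertical axis) of the 4 GINS subunits (left) and the 5 RFC subunits (right) in each library, with mean and SD per group. The 4 Prmt5 KO libraries of Gins4 (74.6 to 100 CPM) lie below the 4 Control libraries (131 to 194 CPM), and Rfc1 and Rfc5 also do not overlap while the other subunits do.

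The polymerases and primase start and extend new strands: Prim1 and Prim2 form primase, Pola1 and Pola2 belong to polymerase alpha, Pold1 is the catalytic subunit of polymerase delta on the lagging strand, and Pole that of polymerase epsilon on the leading strand. None of the 6 passed the test, and 0 had an unadjusted p under 0.05 in edgeR. All 6 values were below 0, from -0.48 to -0.18, with a median of -0.36. All 6 were also below 0 under RLE and upper-quartile scaling. Without Control 1, 5 of 6 were below 0 (median -0.29), and without Prmt5 KO 1 and Prmt5 KO 4 likewise 5 of 6 (median -0.19). Prim2, at -0.48, was at 231 CPM in Control 1, 77.9 to 93.8 CPM in the other Control libraries and 69.9 to 108 CPM in Prmt5 KO. As a deviation from the mean of all 8 libraries on the log2 scale, the class median was 0.16, 0.17, 0.07 and -0.07 in Control. In the Prmt5 KO libraries it was -0.43, 0.13, -0.18 and -0.28. Prmt5 KO 1 was also the library with the high somatic marker sum of 766 CPM. Without Prmt5 KO 1 alone, all 6 values were below 0, with a median of -0.28. The part of the somatic signal in these values was not tested.

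Prim1, the catalytic subunit of primase, was the most abundant of these per length (mean RPKM 108) and had the smallest unadjusted p of the class. It was at 287, 213, 163 and 135 CPM in the Control libraries and 114, 175, 159 and 124 CPM in the Prmt5 KO libraries. Control 1 and 2 were above every Prmt5 KO library, and Control 3 and 4 lay within the Prmt5 KO range. Its log2 fold change was -0.48 (SE 0.241), with an adjusted p of 0.651 in edgeR. Leaving out single libraries moved it between -0.63 and -0.25.

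**Figure D4:**
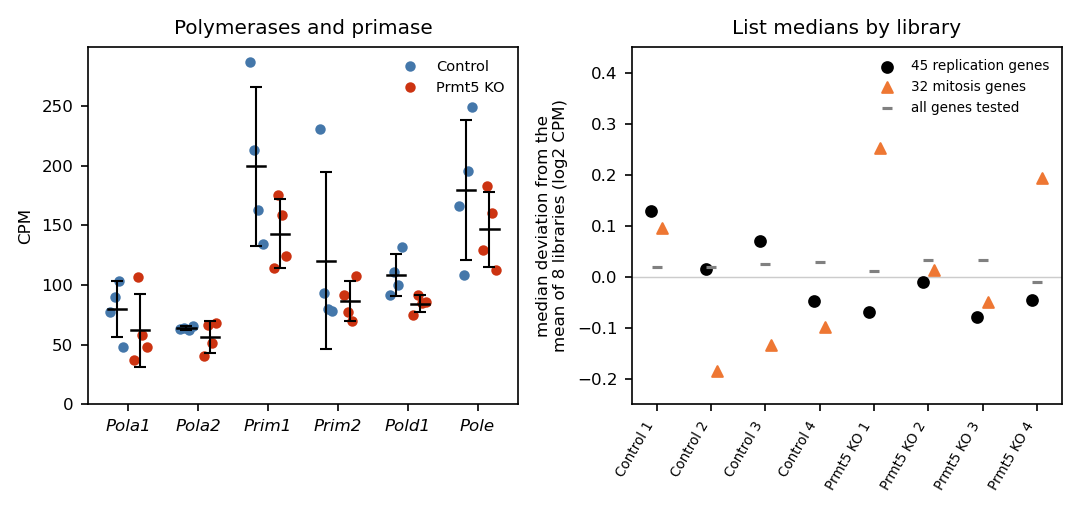
Left, CPM of the 6 polymerase and primase genes in each library with mean and SD per group; right, the median deviation of each library from the mean of all 8 (log2 CPM) for the 45 replication genes, 32 mitosis genes and all genes tested. Control 1 is the high point of Prim1 (287 CPM) and of the replication gene medians (0.13), and mitosis genes are highest in Prmt5 KO 1 (0.25) and Prmt5 KO 4 (0.19).

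PCNA is the sliding clamp that holds polymerases on DNA, and the 5 RFC subunits load it. None of the 6 passed the test, and 2 of them had groups that did not overlap. Rfc1, the large subunit of the loader (minus strand of chromosome 5, 65261850 to 65335670), was measured at 312, 210, 237 and 222 CPM in Control and 139, 184, 189 and 161 CPM in Prmt5 KO. Its highest Prmt5 KO library (189 CPM) was below its lowest Control library (210 CPM), and Control 1 was well above the rest. The log2 fold change was -0.55 (SE 0.178, 95% interval -0.93 to -0.16), with an adjusted p of 0.429 in edgeR, and -0.61 to -0.41 on leaving out single libraries.

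Rfc5, a small subunit (minus strand of chromosome 5, 117378103 to 117389047), was measured at 254, 331, 243 and 242 CPM in Control and 184, 193, 219 and 214 CPM in Prmt5 KO. Here Control 2 was the high point, and the nearest values of the groups were 219 and 242 CPM. The log2 fold change was -0.40 (SE 0.157, 95% interval -0.74 to -0.06), with an adjusted p of 0.540 in edgeR. Part of Rfc5 lies opposite exons of Wsb2, so reads of the pair may be mixed. The other 3 small subunits, Rfc2, Rfc3 and Rfc4, had log2 fold changes of 0.19, -0.09 and -0.10, with overlapping groups.

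Pcna itself was at 567, 536, 568 and 423 CPM in Control and 432, 615, 520 and 672 CPM in Prmt5 KO. Its groups overlapped, with a log2 fold change of 0.10 (95% interval -0.24 to 0.44). It was the most abundant member of its class per length (mean RPKM 357). The pseudogene Pcna-ps2 is 99.2% identical to Pcna over 781 bases and held counts equal to 9.04% of those of Pcna. Reads of the pair may be mixed, to an extent that these counts do not give.

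Fen1 trims the flaps of Okazaki fragments and Lig1 seals them. Fen1 was at 194, 150, 163 and 128 CPM in Control and 163, 140, 126 and 132 CPM in Prmt5 KO, a log2 fold change of -0.18 (SE 0.186) with overlapping groups, and -0.07 without Control 1. Most of the Fen1 transcript lies opposite the antisense gene Gm10143, so its counts may include reads of that gene. Lig1 was at 676, 653, 651 and 715 CPM in Control and 571, 585, 537 and 828 CPM in Prmt5 KO. In Lig1, 3 Prmt5 KO libraries were below every Control library and Prmt5 KO 4 was above every one, so the log2 fold change of -0.10 (95% interval -0.41 to 0.22) averages values on both sides. It was -0.25 without Prmt5 KO 4 and -0.02 without Prmt5 KO 3.

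RPA coats single-stranded DNA at the fork. Rpa1, its large DNA-binding subunit, was at 450, 449, 391 and 347 CPM in Control and 216, 353, 310 and 372 CPM in Prmt5 KO. Prmt5 KO 1 was the lowest by far, while Prmt5 KO 2 and 4 were above Control 4. The log2 fold change was -0.39 (95% interval -0.77 to -0.01), with an adjusted p of 0.598 in edgeR. Leaving out single libraries moved it between -0.48 and -0.25. Rpa2, the middle subunit and the most abundant per length (mean RPKM 386), was at 761, 656, 864 and 675 CPM in Control and 698, 586, 652 and 706 CPM in Prmt5 KO. Its groups overlapped, with a log2 fold change of -0.16 (SE 0.126). Rpa3, the smallest subunit, had a mean of 7.32 CPM in Control and 11.7 CPM in Prmt5 KO, and its interval of -0.62 to 2.00 leaves a difference of 2-fold within it.

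Ribonucleotide reductase (Rrm1 and Rrm2) makes deoxyribonucleotides and thymidylate synthase (Tyms) makes the thymidine nucleotide. Tyms was the most uniform member: it was at 287, 268, 281 and 275 CPM in Control and 255, 262, 248 and 261 CPM in Prmt5 KO. The groups did not overlap, but by a margin of 262 against 268 CPM. The Tyms transcript used shares a stretch (at least 90% identity over 200 bases) with 174 other genes, so its counts may include their reads. The log2 fold change was -0.11 (95% interval -0.39 to 0.16), with an adjusted p of 0.869 in edgeR, whose estimate of spread draws on all genes. Rrm1, the large subunit, was at 847, 589, 718 and 708 CPM in Control and 618, 609, 715 and 513 CPM in Prmt5 KO, overlapping, with a log2 fold change of -0.22 (SE 0.142). Rrm2, the subunit that is limiting in S phase, was at 426, 504, 442 and 318 CPM in Control and 409, 482, 374 and 427 CPM in Prmt5 KO. Its means were 423 ± 77.3 and 423 ± 45.1 CPM (SD, n = 4 each), a log2 fold change of 0.00 with a 95% interval of -0.33 to 0.34.

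Cyclin E drives entry into S phase with Cdk2. Ccne1 was at 94.3, 68.8, 75.2 and 73.2 CPM in Control and 21.8, 53.1, 74.1 and 64.8 CPM in Prmt5 KO. Prmt5 KO 1 was far below the others and Prmt5 KO 3 was within the Control range. The log2 fold change was -0.54 (95% interval -1.27 to 0.18), with an adjusted p of 0.731 in edgeR, and -0.74 to -0.28 on leaving out single libraries. Ccne2 was scarce, at 7.73 to 31.7 CPM over the 8 libraries, with a log2 fold change of 0.03 and an interval of -1.03 to 1.08. Part of the Ccne2 transcript lies opposite exons of Ints8, so its counts may include reads of that gene.

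High and low values were not spread evenly over libraries. Control 1 held the highest value of 14 of the 45 members (31.1%), against 12.0% of all genes tested. Prmt5 KO 1 held the lowest value of 13 members (28.9%), against 17.2% of all genes. The median deviation of the members from the mean of all 8 libraries was 0.13, 0.01, 0.07 and -0.05 in the Control libraries and -0.07, -0.01, -0.08 and -0.04 in the same order for Prmt5 KO on the log2 scale. Control 4 thus lay among the Prmt5 KO libraries.

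A wider list of 73 other fork, S phase and G1/S genes held 69 that were tested (all but Pold4, Polh, Cdkn1b and Ccnd1). None passed in edgeR, and 2 were higher and 4 lower at an unadjusted p under 0.05 (8.70%, against 8.15% of all genes). The median log2 fold change was -0.07. DESeq2, which called 0.974% of all genes, called 2 of these 69, Cdkn1a and Asf1a, both higher, and limma voom called 0. Cdkn1a, the inhibitor of cyclin E and Cdk2 that also binds PCNA, was at 30.6, 24.6, 24.7 and 44.7 CPM in Control and 99.0, 90.3, 105 and 69.3 CPM in Prmt5 KO. The groups did not overlap, with a log2 fold change of 1.53 (SE 0.286) and an adjusted p of 0.147 in edgeR. Asf1a, a histone chaperone at forks, was at 3.89, 12.9, 12.1 and 5.98 CPM in Control and 29.9, 26.9, 38.4 and 36.6 CPM in Prmt5 KO, also without overlap. Its log2 fold change was 1.95 (SE 0.478), with an adjusted p of 0.261 in edgeR, and its transcript lies in part opposite exons of Mcm9.

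Tk1, the thymidine salvage kinase, was at 47.7, 59.8, 50.5 and 58.9 CPM in Control and 30.7, 37.8, 26.8 and 22.7 CPM in Prmt5 KO. Every Prmt5 KO library was below every Control library, with a log2 fold change of -0.88 and an adjusted p of 0.436 in edgeR. E2f7, a repressor of the E2F family named after its values were seen, was the other gene of this list that was lower without overlap, at -0.67. The other genes with small unadjusted p were Rnaseh2a, which removes ribonucleotides from DNA (-0.91), and the fork protein Donson (-1.49), whose exons overlap those of Atp5o. Rbl2, a pocket protein that holds E2F targets down in G0, had a value of 1.35 with an SE of 0.826, which became 0.55 without Prmt5 KO 1.

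The mitosis and spindle genes are the proliferation genes most like the members. Of 32, all tested, 0 passed in edgeR. At an unadjusted p under 0.05 there, 5 were higher and 1 lower (18.8%, against 8.15% of all genes). DESeq2 (0.974% of all genes) called 1 (Kif11, adjusted p 0.0136), and limma voom called 0. In edgeR 24 of 32 were above 0 with a median log2 fold change of 0.20, against 52.7% and 0.03 for all genes. Among the 45 replication genes 19 were above 0. The difference between these lists was not tested. Kif11, the spindle motor, was at 126, 92.0, 105 and 116 CPM in Control and 206, 172, 165 and 259 CPM in Prmt5 KO, without overlap, a log2 fold change of 0.87 with an adjusted p of 0.220 in edgeR. Nusap1 and Birc5, which act on spindle microtubules and in the chromosomal passenger complex, had values of 0.52 and 0.60, while Mad2l1, Aurkb and Cdk1 had values of -0.69, -0.27 and -0.24. Mitosis genes were highest in Prmt5 KO 1 and Prmt5 KO 4, and without these libraries 19 of 32 were above 0, with a median of 0.08.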

How the data were processed

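RNA was measured in 4 Control and 4 Prmt5 KO libraries. The authors deposited raw counts of reads as whole numbers for each transcript in each library. GRCm38 and mm10 are the builds that the submitters' processing notes list. Aligner, counter, annotation release and use of strand: not given in the sources used here. Because counts per gene had been assumed in the design, a gene value was built: transcript identifiers were matched to GENCODE M21 on GRCm38 (64258 of 66262, the rest holding 1.75% to 1.90% of counts), and each gene took the count of the transcript that had the highest total in all 8 libraries together. Among the members, this transcript is annotated as noncoding or subject to decay for Orc5, Cdc7, Rfc3, Lig1 and Tyms. The coding transcript of each had nearly equal counts. Donson and Mad2l1, named from the other lists, used transcripts annotated as retaining an intron. Libraries had 1811433 to 6549498 gene counts, and no pair was identical. CPM used TMM-scaled library sizes, and RPKM divided CPM by the kilobases of the transcript used.

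The filter was filterByExpr of edgeR, at a minimum count of 10 and a minimum total of 15. Genes that passed were compared between Prmt5 KO and Control in all libraries by the quasi-likelihood test of edgeR (TMM, robust, no block) and Benjamini-Hochberg adjustment over 10990 genes at 0.05. The test was checked on simulated counts. SE is the log2 fold change divided by the square root of F. The members and lists were chosen with earlier results of these data known. Named genes were Prmt5, every MCM2-7 subunit and, per role, members called, members whose groups did not overlap, the member with the smallest unadjusted p and that with the highest mean RPKM. From the wider and mitosis lists the rule took called genes and the 3 with the smallest unadjusted p per direction, and from each marker list the most abundant gene. Values of any other gene were chosen after they were seen. Same-numbered libraries deviated together at most weakly (r 0.00 to 0.07 over genes in 4 pairs, against -0.09 to 0.04 for other pairs). These r lay under a cut of 0.1, so numbers were not treated as pairs, though weak pairing remains possible. Alternatives covered scaling, tool, filter, the gene value, left-out libraries and the replicate block. Near copies were sought with blastn 2.17.0 among annotated transcripts. Promoters came from RefSeq (GRCm38.p6). The work used R 4.3.3 with DESeq2 1.42.0, edgeR 4.0.16 and limma 3.58.1, and plots used matplotlib 3.10.9.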

Additional observations from a re-analysis of the deposited data

Results flagged for a closer look

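In 4 groups of 4 libraries, 1 library lay far from the other 3 relative to the range of its group. Among the 88 groups searched, about 4.4 would be singled out by chance, at 1 in 20. Orc4 was low in Control 1, at 32.1 CPM. Rfc5 was high in Control 2, at 331 CPM. Lig1 was high in Prmt5 KO 4, at 828 CPM. Rnaseh2a was high in Prmt5 KO 3, at 59.1 CPM. The search did not cover every gene with values above. Prim2, at 231 CPM in Control 1 and 77.9 to 93.8 CPM in the other Control libraries, was not in it.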

How the results depend on the processing

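No replication gene was called in edgeR under any of the alternatives run in it, nor in limma voom, while DESeq2 called 1 (Gins4). DESeq2 called 2 of the wider list, where the other settings called 0. Over all genes, 3 calls became 7 without a filter, 107 in DESeq2 (62 higher, 45 lower), 1 in limma voom, 1 with transcripts summed, 1 without Prmt5 KO 1 and 4 and 0 without Control 2 and 3 (edgeR, 713 genes at an unadjusted p under 0.05). Leaving out single libraries gave 1 to 2 calls. Fitting the replicate block called 1 gene over all and 0 members, with a median of -0.10, and among named genes ended only the call of Prmt5. The median of the members was -0.13 to 0.018 on leaving out single libraries (0.018 without Control 1, -0.024 without Prmt5 KO 3), and the median of the wider list was 0.0054 without Control 2 and 3. The cause of these changes was not tested.

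Of 703 values of single named genes under alternatives, 24 changed sign, all at most 0.22 in size. Under upper-quartile scaling these were Mcm3 (-0.036), Gmnn (-0.0012) and Rrm2 (-0.043). In limma voom they were Mcm3 (-0.037) and Gmnn (-0.048), and with transcripts summed Rrm2 (-0.059). Without Control 2 and 3 they were Mcm3 (-0.13) and Gmnn (-0.13), and without Prmt5 KO 1 and 4 Mcm3 (-0.22) and Gmnn (-0.020). On leaving out single libraries, values ran from -0.11 to 0.053 for Mcm6, -0.075 to 0.20 for Mcm3, -0.10 to 0.19 for Gmnn, -0.11 to 0.10 for Rrm2, -0.036 to 0.41 for Mcm2, -0.028 to 0.29 for Mcm7 and -0.00096 to 0.20 for Pcna. Using coding transcripts only, a setting chosen after seeing the data, moved no call. Other named values near 0 also moved by over 1.5 times on leaving out single libraries, with ranges of 0.14 to 0.30 for Cdt1, 0.10 to 0.38 for Dbf4, 0.080 to 0.26 for Mcm4, 0.058 to 0.17 for Mcm5, -0.21 to -0.080 for Rpa2, -0.30 to -0.13 for Rrm1, -0.37 to -0.085 for Aurkb and -0.38 to -0.12 for Cdk1. The intervals of Orc4, Gins2, Gins3, Gins4, Pola1, Prim2, Rpa3, Ccne1 and Ccne2 include a 2-fold difference. Control 2 and 3 had the fewest counts.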
